A study of Mus musculus with 6 samples.

Results

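The D-type cyclins Ccnd1, Ccnd2 and Ccnd3, their kinase partners Cdk4 and Cdk6, the kinase inhibitors Cdkn1a (p21) and Cdkn1b (p27) and the retinoblastoma gene Rb1 were followed in RNA from isolated mouse heart muscle cells. These 8 genes, out of 46078 features in the count tables, were taken by name, together with the rows of annotated features whose exons overlap theirs on the other strand. All 8 have a row of their own, and 8 of 9 such opposite-strand features have one too. The genes were chosen by measured values, namely the difference of Ccnd1 between the groups below, so differences of the members between the groups are given as a description, without a test.

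The groups were Acly-KD (n = 3), heart muscle cells with a knockdown of Acly made with MyH6-Cas9 mice, and control (n = 3), labelled as wildtype. In mice of this kind the Myh6 promoter, which is active in heart muscle cells, drives the Cas9 nuclease. Whether the controls carried Cas9, how guides were delivered, and the strain, age and sex of the mice are not given in the sources used here. All cells were isolated by perfusion of the heart, and the labels do not say whether each library is a mouse of its own, so the spread between them may be technical. Acly encodes ATP citrate lyase, which makes cytosolic acetyl-CoA from citrate. The comparison asks how transcripts differ when it is reduced.

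D-type cyclins are the part of the cell cycle engine that responds to growth signals. Each binds Cdk4 or Cdk6, and the complex phosphorylates the retinoblastoma protein, which then releases E2F factors and lets the cell pass from G1 into DNA replication. Cdkn1a and Cdkn1b bind cyclin-kinase complexes and restrain this step. Most adult heart muscle cells no longer divide, and D-type cyclins in them have been studied in growth of the cell and in attempts to bring back division.

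Reads in features numbered 271463 to 814765 per library, 2.81% to 3.07% of uniquely aligned reads. The counts lie mainly on the wrong strand: the 18.0% of nuclear features with exons opposite to another gene held 91.9% of nuclear counts. Each count was therefore read in 2 ways, as deposited, and in an opposite-strand reading, which counts them for the gene on the facing strand. That reading held 140295 to 445228 reads per library. Acly itself had 0, 0 and 0 reads in Acly-KD 1 to 3 and 1, 5 and 6 reads in control 1 to 3. Acly faces no exon of another gene, so these are wrong-strand reads and a limited check of the knockdown. Markers of heart muscle (Atp2a2, Myh7, Myl2 and Ttn) summed to 49020 to 74140 reads per 1000000 in the opposite-strand reading. In that reading Abcc9 and Notch3, from 12 pericyte and smooth muscle markers, summed to 1245 to 1665 in Acly-KD and 1383 to 1552 in control. As deposited, rows of 11 heart muscle markers summed to 6313, 11100 and 19460 in Acly-KD 1 to 3. In control 1 to 3 they summed to 19650, 18810 and 14740, so the groups overlapped. All 11 rows were lower in Acly-KD on average, with a median log2 fold change of -0.435, where 45.6% of all 2952 features lay above zero. The next 3 lists are given as deposited, from rows mainly of the wrong strand, which do not give the level of their messenger RNA. Rows of 12 endothelial markers summed to 28.3 to 126 reads per 1000000 in Acly-KD and 46.5 to 88.4 in control, those of 12 fibroblast markers to 29.8 to 106 and 51.8 to 136, and those of 12 immune markers, with Adgre1, Cd3e, Ptprc and S100a8 at 0, to 73.9 to 105 and 88.4 to 118. The groups overlapped in all 3 sums. They did not overlap in rows of 9 atrial markers, which summed to 37.2 to 58.7 reads per 1000000 in Acly-KD and 73.0 to 92.1 in control, with Bmp10, Dkk3 and Sln at 0. In the opposite-strand reading, with far more reads, the atrial genes Nppa and Kcnj3 together gave 12900, 4688 and 6815 reads per 1000000 in Acly-KD 1 to 3 and 3849, 9384 and 4761 in control 1 to 3, and the groups overlapped. Of their 14870 reads in all, 12426 were of Nppa. Kcnj3 alone, after normalization, read 1050, 1144 and 1079 per 1000000 in Acly-KD 1 to 3. In control 1 to 3 it read 1266, 1549 and 1486, so its groups lay apart with Acly-KD lower. In the other direction, with Acly-KD higher, groups lay apart for 8.12% of all 1453 genes. The part of these cells in the results was not tested.

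The layout of the genes decides which member can be read. Ccnd1 (chromosome 7, 144929931 to 144939925, minus strand, mm10) ends tail to tail with LTO1, a gene of ribosome biogenesis, and 1100 bases of its untranslated last exon are also exon of LTO1. Ccnd2 (chromosome 6, 127125162 to 127152193, minus strand) holds the antisense RNA gene Gm43126 opposite to 372 bases of its 3' untranslated region, and near its start lies 9330179D12Rik, with 2 reads in all. Ccnd3 (chromosome 17, 47505051 to 47599691, plus strand) shares its last 361 bases, untranslated, with Bysl, which encodes a ribosome assembly factor. Cdk6 (chromosome 5, 3341485 to 3531008, plus strand) lies opposite to the antisense gene Gm17590 over 368 bases, of which 110 are coding in Cdk6. The opposite-strand reading gave these 4 members the reads of the LTO1, Gm43126, Bysl and Gm17590 rows.

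For the other members no row stands in cleanly. Cdk4 (chromosome 10, 127063534 to 127067920, plus strand) shares 641 untranslated bases with Tspan31, but it is the Cdk4 row that holds the reads, 2076 over the 6 libraries against 13 in the Tspan31 row. Rb1 (chromosome 14, 73183673 to 73325822, minus strand) overlaps Rcbtb2 by 488 bases and Lpar6, which lies inside the span of Rb1, by 408. Cdkn1a (chromosome 17, 29090976 to 29100727, plus strand) has the short feature AC167363.2 opposite, whose counts are not analysed here. Cdkn1b (chromosome 6, 134920401 to 134925513, plus strand) has no exon of another gene opposite to it.

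**Figure D1:**
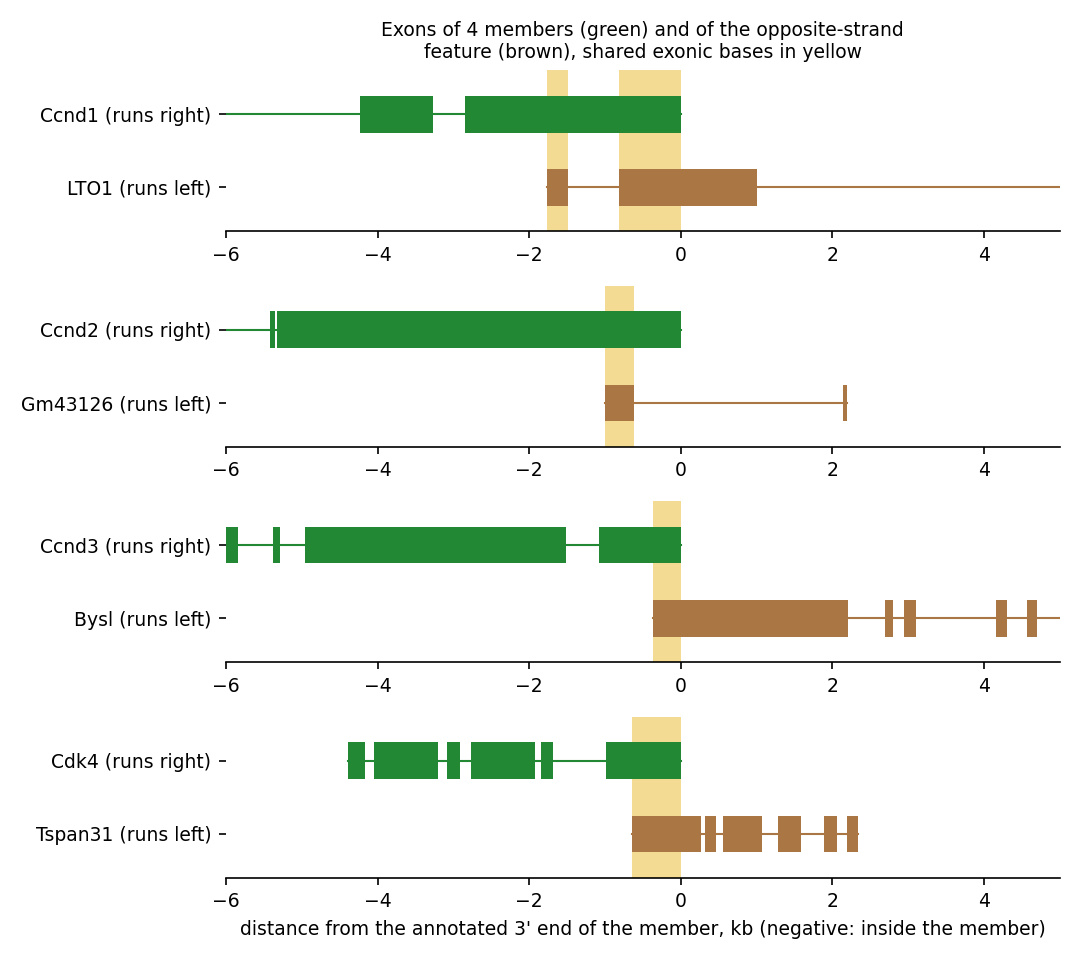
Exons of Ccnd1, Ccnd2, Ccnd3 and Cdk4 (green) and of the feature on the other strand (brown), by distance in kb from the annotated 3' end of the member; yellow marks exonic bases shared by both. The shared stretch lies in the last exon in all 4 cases and measures 1100, 372, 361 and 641 bases.

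Ccnd1, the cyclin most often tied to entry into the cell cycle, was higher in every Acly-KD library than in every control. The raw reads given to it were 279, 137 and 241 in Acly-KD 1 to 3 and 58, 181 and 121 in control 1 to 3. Scaled to library size as counts per 1000000 reads (CPM, with TMM factors), these were 779, 624 and 609 CPM in Acly-KD 1 to 3 and 413, 420 and 330 CPM in control 1 to 3. The lowest Acly-KD library thus lay above the highest control. Means were 671 ± 94.0 CPM in Acly-KD and 388 ± 50.1 CPM in control (SD, n = 3 each), a 1.74-fold difference with a 95% interval from 1.37 to 2.22. Groups lay apart with Acly-KD higher for 8.12% of the 1453 genes measured in this reading, and 0.206% were called higher by edgeR's quasi-likelihood test at an adjusted p under 0.05. Ccnd1 is among the 3 genes called, and since it was chosen on this contrast nothing is read from that call.

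Neither Ccnd2 nor Ccnd3 showed such a gap. Ccnd2, a D-type cyclin known for driving division of heart muscle cells when supplied in excess, read 514, 524 and 468 CPM in Acly-KD 1 to 3. In control 1 to 3 it read 498, 606 and 515 CPM, and the groups overlapped. Its log2 fold change was -0.12, with a 95% interval from -0.45 to 0.21. Ccnd3, the D-type cyclin that is also expressed in many resting and differentiated cells, read 709, 547 and 571 CPM in Acly-KD 1 to 3 and 719, 615 and 630 CPM in control 1 to 3. The highest libraries of the groups were nearly level, both being replicate 1. The log2 fold change was -0.09, with an interval from -0.41 to 0.23. As fold changes, these intervals run from 0.73 to 1.15 for Ccnd2 and from 0.75 to 1.18 for Ccnd3.

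**Figure D2:**
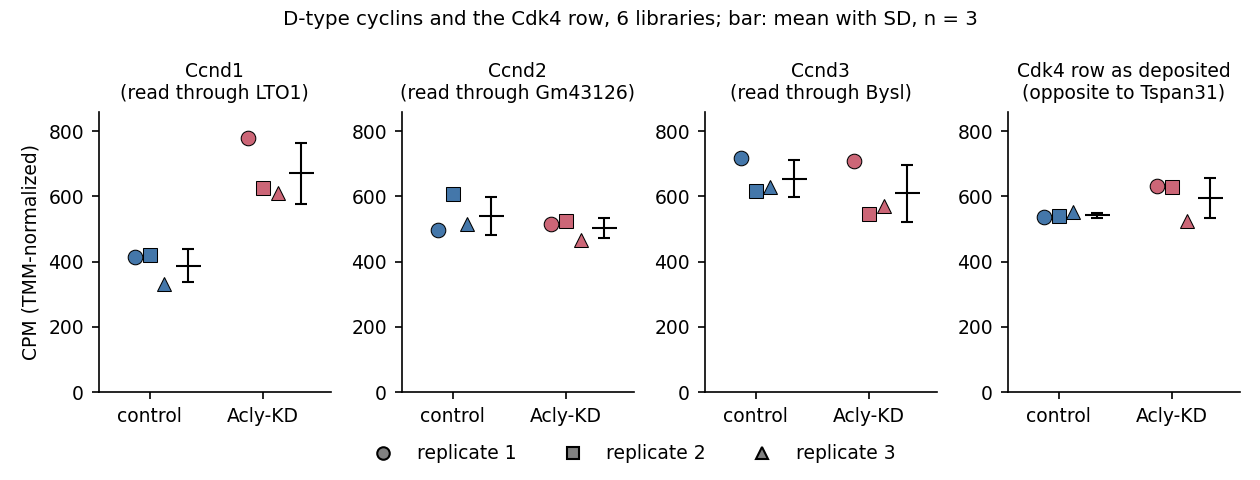
CPM of Ccnd1, Ccnd2 and Ccnd3 in the opposite-strand reading and of the Cdk4 row as deposited, in 3 control (blue) and 3 Acly-KD (red) libraries, with mean and SD (n = 3). Ccnd1 spans 609 to 779 CPM in Acly-KD and 330 to 420 CPM in control, while the groups overlap in the other 3 panels.

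A ratio of reads within a library does not depend on how libraries are scaled. Of the reads of the 3 D-type cyclins, 372 to 717 per Acly-KD library and 229 to 707 per control, Ccnd1 took 38.9%, 36.8% and 37.0% in Acly-KD 1 to 3 and 25.3%, 25.6% and 22.4% in control 1 to 3. Wilson 95% intervals, which cover counting error only and not the spread between libraries, were widest in control 1, the shallowest library, at 20.1% to 31.3%. The mean share was 37.6% ± 1.17 in Acly-KD and 24.4% ± 1.79 in control (SD, n = 3 each). Per read of Ccnd2 there were 1.52, 1.19 and 1.30 reads of Ccnd1 in Acly-KD 1 to 3 and 0.829, 0.694 and 0.640 in control 1 to 3. Ccnd1 reads outnumbered Ccnd2 reads in all 3 Acly-KD libraries and in no control. The ratio of Ccnd2 to Ccnd3 reads, in contrast, was 0.834 ± 0.118 in Acly-KD and 0.832 ± 0.146 in control. Added together, the 3 cyclins read 2002, 1696 and 1648 CPM in Acly-KD 1 to 3 and 1629, 1642 and 1475 CPM in control 1 to 3, so the lowest Acly-KD sum was just above the highest control. The sum contains Ccnd1, on whose contrast the members were chosen, so nothing is read from that gap.

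**Figure D3:**
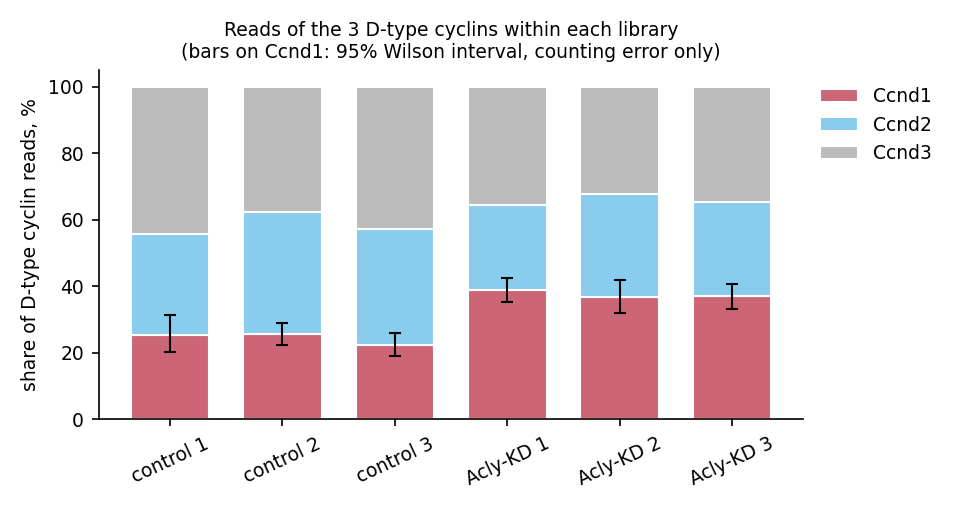
Share of the reads of Ccnd1, Ccnd2 and Ccnd3 in each of the 6 libraries, in percent, with the 95% Wilson interval of the Ccnd1 share. Ccnd1 takes 22.4% to 25.6% in control and 36.8% to 38.9% in Acly-KD.

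Levels of the 3 cyclins can be set side by side only per length, here CPM per kb of exon shared with the row that carried the reads. In control, Ccnd3 stood at 1813 ± 155, Ccnd2 at 1451 ± 156 and Ccnd1 at 352 ± 45.6 CPM per shared kb (SD, n = 3 each). In Acly-KD the order was the same, with 1687 ± 243, 1349 ± 81.0 and 610 ± 85.5. Ccnd1 was the lowest of the 3 on this scale in all 6 libraries. The ranges of Ccnd3 and Ccnd2 did not overlap in either group, at 1705 to 1990 and 1339 to 1629 in control and 1515 to 1965 and 1257 to 1409 in Acly-KD. With 250 bases, the shortest library fragment the labels give, added to each stretch, because fragments reaching only part way into it are also counted, the control means were 1071, 868 and 287 for Ccnd3, Ccnd2 and Ccnd1 and the order held in all 6 libraries. The shared stretch is part of 5 of 21 annotated transcripts of Ccnd3, 1 of 8 of Ccnd2 and 1 of 3 of Ccnd1, and shorter forms are missed.

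The reads called Ccnd1 here are all reads of the LTO1 row, of whose exonic bases 15.6% lie opposite to Ccnd1. That row held 144 reads per kb of exon over the 6 libraries, 1017 in all. Among 16348 protein-coding rows with no exons opposite, the median was 0 reads per kb, the 90th percentile 4.52 and the 99th 58.2. As deposited, the LTO1 row read 428, 335 and 301 CPM in Acly-KD 1 to 3 and 211, 214 and 174 CPM in control 1 to 3, a log2 fold change of 0.83 (95% interval 0.43 to 1.23). On that scale 0 of 2952 features, or 0%, passed edgeR's test (180 had an unadjusted p below 0.05), and 5.83% had groups apart with Acly-KD higher, LTO1 among them. Reads of Ccnd1, reads elsewhere in LTO1 and reads of a transcript antisense to LTO1 cannot be told apart.

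The row of Ccnd1 itself, which would collect transcripts running against Ccnd1, had few reads. It held 6, 3 and 19 reads in Acly-KD 1 to 3 and 10, 13 and 13 in control 1 to 3, or 9.21, 7.33 and 23.7 CPM against 36.4, 15.4 and 18.7 CPM. Acly-KD 1 and 2 were the lowest of the 6 libraries and Acly-KD 3 was the second highest, so the groups overlapped. The log2 fold change was -0.61, with a 95% interval from -1.85 to 0.63. Over 487 genes, the ratio of own-row to opposite-strand reads, relative to the mean of the libraries, was 0.833, 0.933 and 1.18 in Acly-KD 1 to 3 and 1.12, 1.10 and 1.02 in control 1 to 3. The row of Ccnd2 had 3, 1 and 2 reads in Acly-KD 1 to 3 and 2, 12 and 7 in control 1 to 3. That of Ccnd3 had 3, 3 and 9 and then 7, 7 and 2 reads.

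In 18 alternative settings, refits of the same libraries that add no support, the log2 fold change of Ccnd1 ranged from 0.68 to 0.88. The call on which Ccnd1 was chosen was lost in 9 of them. These were a stricter filter on low counts, the uniquely aligned reads for scaling, either of 2 added terms, and leaving out any single library other than Acly-KD 3. One of the terms stood for control 2 and 3, the only libraries with reads opposite to Xist, the RNA of the inactive X chromosome in female cells, at 149 and 137 reads against 0 in the other 4. Control 1, without such reads, read 413 CPM of Ccnd1, between control 2 and 3 at 420 and 330 CPM. With the term, which leaves control 1 alone against Acly-KD, the log2 fold change was 0.70 (SE 0.26). The other term stood for the ratio of own-row to opposite-strand reads, and with it the value was 0.74 (SE 0.18). Beyond these terms, the part of either in the Ccnd1 difference was not tested.

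**Figure D4:**
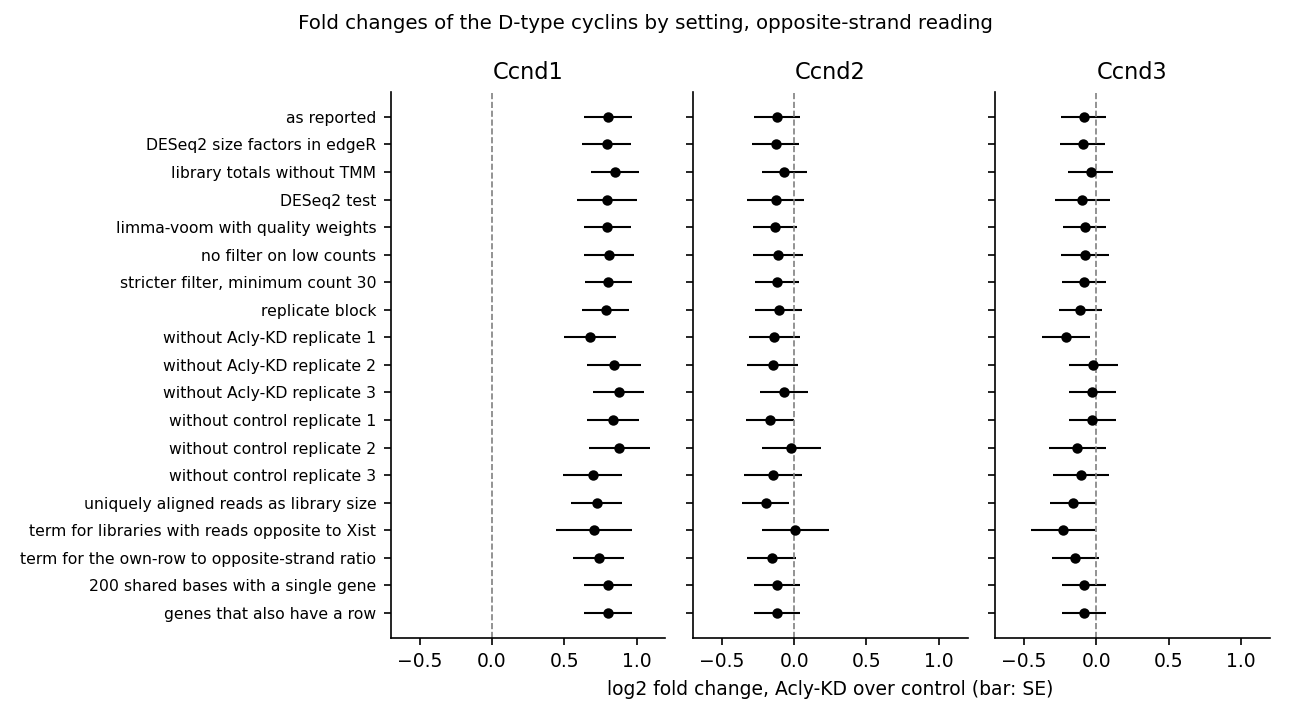
Log2 fold changes of Ccnd1, Ccnd2 and Ccnd3 (Acly-KD over control, bar: SE) as reported and in each of 18 alternatives. Ccnd1 lies between 0.68 and 0.88, Ccnd2 between -0.20 and 0.01 and Ccnd3 between -0.23 and -0.02.

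Among the kinase partners, the Cdk4 row was abundant and even. It read 633, 630 and 524 CPM as deposited in Acly-KD 1 to 3 and 535, 541 and 551 CPM in control 1 to 3, with Acly-KD libraries both above and below all controls. The log2 fold change was 0.13, with a 95% interval from -0.18 to 0.45. In the opposite-strand reading these reads belong to Tspan31, a membrane protein gene, and not to Cdk4. The row that would carry Cdk4 messenger RNA, that of Tspan31, had 2, 0 and 4 reads in Acly-KD 1 to 3 and 0, 0 and 7 in control 1 to 3. The shared stretch is in 2 of 9 annotated Cdk4 transcripts and in 1 of 5 of Tspan31. Set against the steady Cdk4 row in the same library, Ccnd1 had 0.677, 0.531 and 0.575 reads per read in Acly-KD 1 to 3 and 0.395, 0.396 and 0.316 in control 1 to 3.

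Cdk6, the other kinase of D-type cyclins, was barely detected. Its own row had 1 read in the 3 Acly-KD libraries together and 3 in the controls. Its partner row Gm17590 had 4, 1 and 0 reads in Acly-KD 1 to 3 and 4, 4 and 4 in control 1 to 3. Both rows fell under the filter on low counts, and a change of Cdk6 was not detectable at this depth.

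The inhibitors were no better covered. Cdkn1a, the p53-induced inhibitor p21, had 2, 1 and 5 reads of the wrong strand in Acly-KD 1 to 3 and 1, 3 and 4 in control 1 to 3. That is 4.14 reads per 1000000 over the Acly-KD group and 4.35 over the controls. Cdkn1b, the inhibitor p27 that holds resting cells in G1, had 1, 1 and 0 and then 0, 4 and 1 reads. That is 1.04 reads per 1000000 over the Acly-KD group and 2.72 over the controls. A group total of 0 would still allow up to 1.55 and 1.63. With 16 and 7 reads in all, neither says what the messenger RNA did.

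Rb1, whose protein is the main target of the cyclin D kinases, had a row with large spread. It read 49.1, 65.9 and 106 CPM as deposited in Acly-KD 1 to 3 and 7.28, 103 and 86.3 CPM in control 1 to 3. Control 1 held 2 reads where the other libraries held 27 to 87, and it set the spread of the controls. The log2 fold change was 0.06 with a 95% interval from -1.41 to 1.53, and without control 1 it was -0.31. By layout these reads run with Lpar6, a receptor for lysophosphatidic acid, or with Rcbtb2. The Rcbtb2 row, opposite to 488 bases of Rb1, had 28, 17 and 56 reads in Acly-KD 1 to 3 and 22, 41 and 32 in control 1 to 3, and the Lpar6 row had 2 reads in all. The reading gave neither to Rb1, since Rb1 has more reads of its own.

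In all, 3 of the 8 members (Ccnd1, Ccnd2 and Ccnd3) passed the filter on low counts in the opposite-strand reading, and 3 (Cdk4, Rb1 and Ccnd1) did so as deposited. Cdk6, Cdkn1a and Cdkn1b passed in neither.

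The 3 genes most like Ccnd1 over the 6 libraries, by root mean square difference of centred log2 CPM among 1452 others, were Hectd2os at 0.156, Styx at 0.157 and Gm39214 at 0.164. The median gene differed by 0.505, and Ccnd2 and Ccnd3 by 0.465 and 0.459. Hectd2os read 313, 242 and 230 CPM in Acly-KD 1 to 3 and 164, 128 and 145 CPM in control 1 to 3. As for Ccnd1, Acly-KD 1 was the highest library of these 3 genes. Since they were picked for likeness to Ccnd1 over these libraries, a shared pattern follows from the choice.

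Genes that act around the D-type cyclins were few in the opposite-strand reading, and they are given from lists. Each is read through the row of a facing feature, and reads of the gene cannot be told apart from other reads of that row. Among 50 genes of pathways upstream of Ccnd1, 8 were tested, 1 was higher and 1 lower by edgeR's test, and the median log2 fold change was 0.03, beside 0.0051 for all 1453 genes. Calls made up 0.206% of all genes in each direction. The higher gene was Mrtfb, a coactivator of serum response factor (log2 fold change 2.00, 95% interval 1.10 to 2.90, adjusted p = 0.0422 in edgeR), and the lower was Jund, an AP-1 factor (-0.76, interval -1.08 to -0.44, adjusted p = 0.0366). Mrtfb read 176, 54.7 and 104 CPM in Acly-KD 1 to 3 and 42.7, 30.2 and 19.1 CPM in control 1 to 3, from 142 reads of the Gm15738 row. Jund, through the Gm11175 row, read 841, 634 and 637 CPM and then 953, 1312 and 1273 CPM. Both calls were known from earlier results, and in 16 and 18 alternatives they held in 7 and 12. Mrtfb was not measured with a minimum count of 30 or with 200 shared bases. With the term for control 2 and 3, described above for Ccnd1, the log2 fold change of Jund was -0.43 and that of Mrtfb 1.41, and neither passed (adjusted p = 0.736 for both in edgeR). Jun, the AP-1 factor that activates the Ccnd1 promoter, read 163 CPM in control and 234 CPM in Acly-KD without passing (0.56, interval 0.01 to 1.11). By library, through the Junos row, it read 338, 150 and 215 CPM in Acly-KD 1 to 3 and 178, 165 and 147 CPM in control 1 to 3. The groups overlapped, and Acly-KD 1 was the highest library.

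Further genes of that list lay nearer to zero. Ctnnb1, which encodes the beta-catenin of the Wnt pathway, read 1377 and 1425 CPM in control and Acly-KD (0.06, 95% interval -0.22 to 0.34). For Yap1, the Hippo pathway coactivator, the interval was -0.30 to 0.49, and for the receptor Notch1 it was -0.37 to 0.37. Ccn2, a target of Yap1 also known as connective tissue growth factor, read 4103 and 3106 CPM (-0.41, interval -1.48 to 0.65). Foxo1, a factor that represses D-type cyclins, had an interval from -0.83 to 0.48.

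D-type cyclins are also set by how fast they are destroyed. Of 20 genes for cyclin D phosphorylation and degradation, 2 were tested in the opposite-strand reading and 0 passed by edgeR. Gsk3a, a kinase of the family that marks cyclin D1 for export and degradation, read 1977 CPM in control and 1910 CPM in Acly-KD, and its log2 fold change had a 95% interval between -0.30 and 0.20. Fbxw8, an F-box protein of a cyclin D1 ubiquitin ligase, read 974 and 957 CPM, with an interval from -0.32 to 0.27. As deposited, 4 rows of this list were tested and 0 passed. One of these, that of Cul1, a ligase scaffold, was lower in CPM in all 3 Acly-KD libraries (log2 fold change -1.06, interval -2.25 to 0.13), and 11.4% of all features had groups apart in either direction. The Cul1 row held 6, 2 and 10 reads in Acly-KD 1 to 3 and 5, 16 and 15 in control 1 to 3. It faces A930035D04Rik over 192 bases, and reads of the 2 genes cannot be told apart.

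Downstream of the cyclins, Rbl2, the retinoblastoma relative p130 of resting cells, was the single gene tested among 29 other G1 regulators. It read 446 CPM in control and 460 CPM in Acly-KD (log2 fold change 0.04, 95% interval -0.31 to 0.39). Slbp, which binds histone messenger RNA in S phase, was the single one of 20 replication genes and rested on 39 reads (-0.94, interval -2.37 to 0.49). Of 21 genes of G2 and mitosis none could be read. Gadd45a, the single one of 20 genes of the p53 pathway, read 167 and 140 CPM (-0.28, interval -1.13 to 0.56). None of these 3 genes passed edgeR's test, so the step after cyclin D is barely covered.

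As deposited, 7 rows of the upstream list were tested, and 0 passed by edgeR. All 7 were lower in Acly-KD on average, with a median log2 fold change of -0.94, where 45.6% of all 2952 features lay above zero. All 11 rows of heart muscle markers were lower too, with a median of -0.435. The rows of the whole list summed to 211, 217 and 368 reads per 1000000 in Acly-KD 1 to 3 and 446, 462 and 368 in control 1 to 3. Acly-KD 1 and 2 were the lowest, as they were in the ratio of own-row to opposite-strand reads, at 0.833 and 0.933. The part of that ratio in these sums was not tested. Of the 7 rows, those of Fosl1, Jund, Ccn2 and Stat3 face exons of another gene, whose reads cannot be told apart from theirs. The rows of Atf3, Akt1 and Foxo3 face no exon of another gene. They hold wrong-strand reads, which do not give the level of their messenger RNA.

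On the same scale, 5 rows of the other G1 regulators, 2 of the replication genes and 1 of the mitotic genes were tested, and 0 passed. The rows with the most reads were those of Ccnc, which encodes cyclin C of the Mediator kinase (131 CPM in control, 187 CPM in Acly-KD, log2 fold change 0.51, 95% interval 0.10 to 0.93), and Ccna2, cyclin A2 (138 and 139 CPM, 0.04, interval -0.46 to 0.54). Exons of Tstd3 and Exosc9 lie opposite to these, over 276 and 510 bases, and reads of the gene and of the one opposite cannot be told apart. Of these 8 rows, those of Ccnc, Rbl2 (log2 fold change 0.80, interval 0.01 to 1.58) and Tyms, thymidylate synthase (0.85, interval -0.08 to 1.78), had groups apart with Acly-KD higher, as 5.83% of all features did. Rbl2 and Tyms were named here after their values were seen. The Rbl2 row faces exons of 2 genes, sharing 892 bases with Gm45464, and its reads cannot be told apart from theirs. In the opposite-strand reading Rbl2 had a log2 fold change of 0.04. For 13 of the 21 mitotic genes, Ccnb1, Cdk1, Top2a and Plk1 among them, and for 8 of the 20 replication genes the row held 0 reads in all 6 libraries. Since these rows hold the wrong strand, that does not give the level of their messenger RNA.

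**Figure D5:**
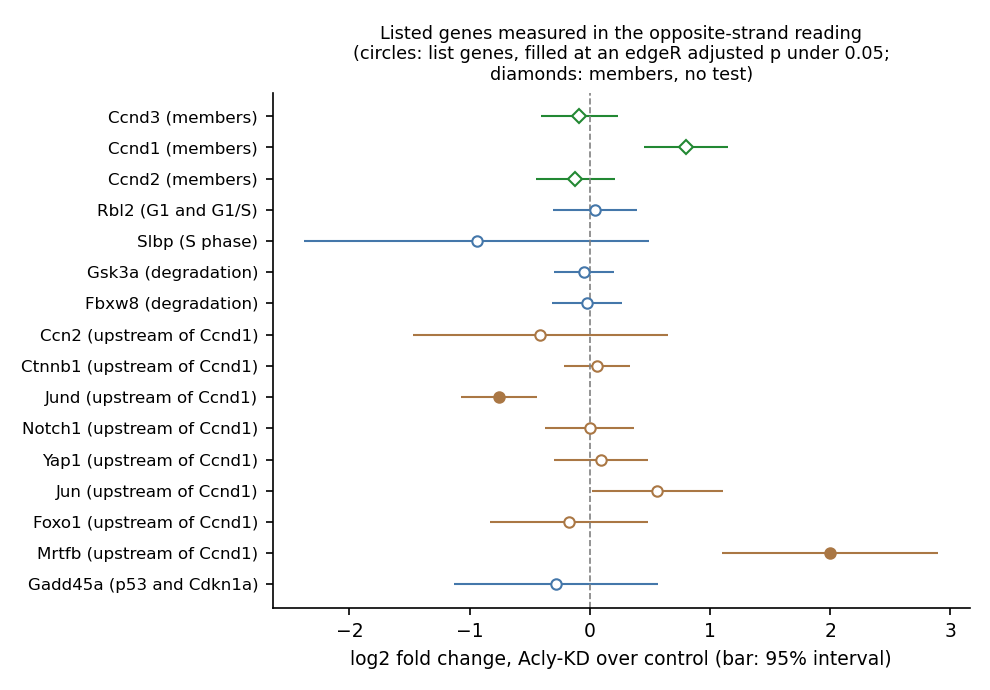
Log2 fold changes (Acly-KD over control, bar: 95% interval) of the 3 members and 13 genes of the lists around them that were measured in the opposite-strand reading; filled circles mark an edgeR adjusted p under 0.05. Mrtfb at 2.00 and Jund at -0.76 are filled, and members, drawn as diamonds, carry no test.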

How the data were processed

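Poly-A RNA was made into strand-specific paired-end libraries, per the labels' protocols. The authors deposited whole-number counts of reads per gene, made with HTSeq on mm10, per the submitters' processing notes, which also name FastQC, TopHat2, SAMtools and DESeq2 without versions; the strand setting is not stated there. Rows that name no gene held 97.4% to 97.7% of a library's entries and stayed out of library sizes and tests. Libraries were grouped by title.

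Features were matched to GENCODE M21 (45229 of 46078). In the opposite-strand reading, a nuclear feature's reads went to the gene that made up 80% or more of its exonic overlap with the other strand, over 50 bases or more, unless that gene had as many reads itself. This gave 2973 genes. Both tables were fitted with edgeR 4.0.16 in R 4.3.3 (TMM, filterByExpr at minimum count 10, quasi-likelihood with robust fitting, Benjamini-Hochberg at 0.05); 95% intervals use the t distribution. Members and lists were chosen with earlier results of these data known. Named genes were the members and their opposite features, passing list genes or otherwise up to 3 of the most abundant, and the 3 genes nearest to Ccnd1. Other list genes were named after their values were seen. On simulated counts of 1453 genes in the opposite-strand reading, 25.8% of 1.5-fold, 65.2% of 2-fold and 86.8% of 3-fold changes were recovered. Of the calls made there, 7.02% were genes simulated without a change. For the 2952 features as deposited, recovery was 5.17%, 32.8% and 63.5%, and 3.39% of calls were unchanged features. Within groups, pairs of libraries had a chi-square of 3.43 to 10.1 per degree of freedom, more than counting noise, so none was the same library deposited again; whether libraries share a mouse is not tested by this. Alternatives used DESeq2 1.42.0, limma 3.58.1 and other filters, scalings and libraries. The result of 1 marker list is not reported here.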

Additional observations from a re-analysis of the deposited data

How the results depend on the processing

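Alternatives were run for both readings. For Ccnd1 they use the contrast on which it was chosen, so they show what its call depends on and are no support for it. The call was lost, with log2 fold changes of 0.80 with a minimum count of 30 (fewer genes tested), 0.72 with uniquely aligned reads as library size, 0.70 with the Xist term and 0.74 with the term for the own-row to opposite-strand ratio. Without single libraries it ran from 0.68 (without Acly-KD 1) to 0.88, and the call held without Acly-KD 3 and was lost without each of the others. Fewer libraries also give less power, and the cause of the other losses was not tested.

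Counts of genes called in the opposite-strand reading, 3 higher and 3 lower as reported, were 1 higher with DESeq2, 12 and 18 without a filter, 0 and 0 with a minimum count of 30 (98 genes had an unadjusted p below 0.05), 5 and 7 with the replicate block, 0 higher with uniquely aligned reads (146), 0 and 0 with the Xist term (96), 0 and 1 with the ratio term (125) and 1 higher with 200 shared bases. They ran from 0 to 8 higher and 1 to 12 lower without single libraries, the most being without Acly-KD 3. As deposited, 0 and 0 became 2 and 1 without a filter and with the ratio term, and 0 to 23 higher and 0 to 46 lower without single libraries, again the most without Acly-KD 3. There the LTO1 row passed, at a log2 fold change of 1.01 (adjusted p = 0.0116 in edgeR, 0.0116 to 0.985 over its alternatives). Its reads are those called Ccnd1, on whose contrast the members were chosen, so nothing is read from that call either.

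Ccnd2 ranged from -0.20 to 0.01, Ccnd3 from -0.23 to -0.02 and the Cdk4 row from 0.02 to 0.27, and none passed in any setting. The Rb1 row ran from -0.31 to 0.52 without single libraries, and 3.32 with the Xist term, which leaves its controls as the 2 reads of control 1. Libraries with the same replicate number did not deviate together (correlations of -0.0195, -0.0184 and -0.0428), so the numbers were not taken as pairs. With the replicate block Ccnd1 stood at 0.79 and all 6 genes called as reported were still called, among 12. The shallowest library, control 1, limits what can be seen of rows with few reads. The terms for Xist and for the ratio and the uniquely aligned reads were added after the data were seen.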
